A study of Mus musculus with 2 samples.

Results

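The genes described here are 10 components of the Notch pathway, the cell-to-cell signalling route that holds neural stem cells of the adult brain in an undifferentiated state. They were taken as the probes whose gene name in the scanner files is Notch1, Notch2, Notch3, Dll1, Dll3, Jag1, Jag2, Lfng, Rbpj or Nrarp, which gave 15 of the 56605 probes on the array and 10 of its 37074 gene names. Total RNA of mouse brain cells was measured on 2 Agilent one-colour arrays, 1 from a neurosphere culture and 1 labelled VZ/SVZ, the ventricular and subventricular zone along the lateral ventricles. Neurospheres are floating clusters grown from neural stem and progenitor cells. Per the labels, both samples came from C57BL/6 mice aged 6 months, are Ecrg4hetero and beta-gal positive, and have 1 growth protocol, DMEM/F12 medium with bFGF, EGF and heparin. Both groups share the Ecrg4 allele and the β-galactosidase label, and no group without them was measured. Whether the VZ/SVZ sample was cultured like the neurospheres or was taken as tissue is not clear from the labels, so each difference may also be one of culture against tissue, and these cannot be told apart. The sources used here do not give the number of animals behind each sample, the time in culture or the way β-galactosidase was used to choose cells. With 1 array per group no difference has a replicate check and no test was made.

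Notch receptors are cut after they bind a ligand on a neighbouring cell, and the released inner part enters the nucleus. There it joins the DNA-binding protein RBPJ and switches on target genes such as those of the HES and HEY repressors. Delta-like (Dll) and Jagged (Jag) proteins are the ligands, Fringe enzymes such as LFNG add sugars to the receptor that change which ligand it answers to, and NRARP is a small protein, made in response to Notch, that dampens the signal. In the subventricular zone the pathway is known for keeping stem cells quiescent. In each of these genes fewer cells that carry the transcript and less transcript per cell cannot be told apart in bulk RNA.

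The sequences that bear on the genes with the largest differences are shown first. The 250 bases before the start site of Nrarp, Lfng, Rbpj and Dll3 are given 5′ to 3′ on the strand of the gene, from RefSeq's promoter table (GRCm38.p6). All 10 genes matched this table by symbol, with 12 start sites. The RBPJ core motif TGGGAA and the E-box CACGTG, a site class that basic helix-loop-helix proteins including HES and HEY factors can bind, are in capitals on either strand (TTCCCA is the core on the other strand).
Nrarp, chr2:25180508-25180757, plus strand: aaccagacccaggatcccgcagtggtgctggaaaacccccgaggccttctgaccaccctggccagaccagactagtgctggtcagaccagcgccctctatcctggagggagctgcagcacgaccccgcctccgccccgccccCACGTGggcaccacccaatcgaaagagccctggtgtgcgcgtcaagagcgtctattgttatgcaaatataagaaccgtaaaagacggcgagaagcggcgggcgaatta
Lfng, chr5:140607091-140607340, plus strand: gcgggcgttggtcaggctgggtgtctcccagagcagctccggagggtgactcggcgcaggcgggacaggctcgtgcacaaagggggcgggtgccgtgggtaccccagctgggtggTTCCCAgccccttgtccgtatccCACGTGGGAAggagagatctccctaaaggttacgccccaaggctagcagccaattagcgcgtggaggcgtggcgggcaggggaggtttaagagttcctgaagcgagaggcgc
Rbpj, chr5:53590096-53590345, plus strand: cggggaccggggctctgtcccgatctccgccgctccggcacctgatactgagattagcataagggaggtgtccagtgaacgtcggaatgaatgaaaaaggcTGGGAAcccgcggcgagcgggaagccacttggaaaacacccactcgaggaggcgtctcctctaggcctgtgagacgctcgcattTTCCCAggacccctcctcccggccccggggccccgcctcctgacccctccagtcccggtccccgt
Dll3, chr7:28301786-28302035, minus strand: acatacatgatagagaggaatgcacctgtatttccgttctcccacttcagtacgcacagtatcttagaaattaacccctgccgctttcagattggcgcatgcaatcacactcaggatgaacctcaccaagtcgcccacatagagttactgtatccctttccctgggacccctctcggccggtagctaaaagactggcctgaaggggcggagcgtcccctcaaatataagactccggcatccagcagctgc
The Lfng window held the core on each strand, at 135 and 108 bases before the start, and the copy at 108 is part of the longer form GTGGGAA and overlaps the E-box at 112. The Nrarp window held the E-box at 108 bases before the start and no core motif. Rbpj held the core at 149 and 65 bases before this start site, and its other start site, whose window overlaps this one, shares the copy at 65. Dll3 held neither, and the N-box CACNAG, a further site of HES proteins, was in 5 of the 12 windows (Lfng, Notch1, Notch2, Notch3 and Nrarp) and in 36.7% of all. Among the 32817 windows of all genes, 21.6% held TGGGAA, 5.42% held GTGGGAA and 6.02% held CACGTG, counting both strands. Of the 12 windows of these 10 genes, 3 held TGGGAA (1 of Lfng, 2 of Rbpj), 1 held GTGGGAA and 2 held CACGTG. These matches describe letters and were not tied to binding.

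Each measurement is the brightness of a probe of 60 bases, and each of the 15 probes had 1 spot per array. A probe each of Notch1, Lfng and Rbpj is printed as the scanner files give it, in lower case with nothing marked, to show what was hybridised for a receptor, for a modulator and for the nuclear effector.
Notch1, position 5898 of the transcript: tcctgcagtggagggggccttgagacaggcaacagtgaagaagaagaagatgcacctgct
Lfng, position 1070 of the transcript: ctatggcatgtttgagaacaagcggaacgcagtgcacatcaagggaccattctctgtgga
Rbpj, position 393 of the transcript: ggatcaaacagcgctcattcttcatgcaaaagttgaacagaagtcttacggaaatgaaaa
In mm9, the build of the scanner files, these lie on chromosome 2, 26319440 to 26319499 (minus strand), on chromosome 5, 141090156 to 141090215 (plus strand), and on chromosome 5, 54027234 to 54027293 (plus strand). Of the 15 probes, 12 are assigned to a RefSeq transcript and 3 to an Ensembl transcript with no RefSeq accession, namely the probe of Notch1 at position 3698, that of Notch2 at 1733 and that of Dll1 at 51. RefSeq's table lists 3 Rbpj pseudogenes, and whether the Rbpj probes also bind their transcripts was not tested.

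On the neurosphere array 61.2% of all probes were well above background, against 66.2% on the VZ/SVZ array, and no spot was saturated. The 75th percentile of the processed signal, which is the scanner's background-subtracted and further corrected intensity, was 99.4 and 106.1, and levels were divided by it. Differences are log2 levels of VZ/SVZ minus neurosphere, and the error after ± is the technical error of the scanner's error model, which leaves out the spread between animals and cultures. Markers of neural stem and progenitor cells were bright on both arrays, 7 of 7, and 4 of them (Nes, Sox2, Fabp7 and Slc1a3) passed 2-fold towards the neurosphere, with Nes at -1.81 ± 0.20 and Sox2 at -1.28 ± 0.20. Their summed signal, in units of each array's 75th percentile, was 661.3 and 329.9, and other probes of Slc1a3 lay between -0.25 and 0.74. Ependymal markers, of the ciliated cells that line the ventricle, were lower in the VZ/SVZ sample for 3 of 5, with Foxj1 at 513.2 in the neurosphere and 133.3 in VZ/SVZ. Astrocyte markers were bright for 5 of 5 genes on both arrays, with a summed signal of 15.3 and 57.4. Of these, 3 were higher in VZ/SVZ (Aldh1l1 4.52 ± 0.21, Aqp4 1.83 ± 0.22 and Gja1 1.78 ± 0.20) and S100b was higher in the neurosphere (-1.95 ± 0.24). Other probes of Gja1 lay between -0.71 and 1.75 and of Aqp4 between 0.0002 and 2.95, and the other probe of Aldh1l1 was at 2.51. Gfap lay within 2-fold at 0.92 ± 0.20, with its other probe at 5.13. Of 6 markers of the oligodendrocyte lineage, Olig2 was higher in the neurosphere (-1.79 ± 0.20) and Cspg4 in VZ/SVZ (1.08 ± 0.23). The other 4 lay within 2-fold, and the list median was 0.20. Fibroblast markers were bright for 1 of 6 genes in the neurosphere and 6 of 6 in VZ/SVZ, and their summed signal was 0.428 and 103.0. Over all genes, 11.1% passed 2-fold towards the neurosphere and 18.7% towards VZ/SVZ. The part of these cell types in the differences of the Notch genes was not tested.

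Among the 10 genes, Nrarp, Lfng and Dll3 had levels at least 2-fold above those of VZ/SVZ in the neurosphere, and Rbpj passed 2-fold in the opposite direction. Notch1, Notch2, Notch3, Dll1 and Jag1 lay within 2-fold, and Jag2 was dim on both arrays. The receptors, Dll1 and Jag1 thus differed by less than the feedback inhibitor, the Fringe enzyme and the nuclear effector. Of the 9 genes measured, 3 (33.3%) were higher in the neurosphere, beside 11.1% of all 26470 genes measured, and 1 (11.1%) was higher in VZ/SVZ, beside 18.7%. In either direction 4 of the 9 passed 2-fold, beside 29.7% of all genes. Dll3 passed the filter on background through the neurosphere array alone. Of the 8 genes bright on both arrays, 2 were higher in the neurosphere, beside 11.6% of the 21971 genes bright on both, and 1 was higher in VZ/SVZ, beside 14.4% (26% in either direction). The median difference of the 9 was -0.18, beside 0.04 over all genes. Of all genes past 2-fold, 62.7% had the higher level in VZ/SVZ, and 51.9% with quantile normalization, with which the 9 genes gave the same counts of 3 and 1. With normexp the counts were 2 and 1, beside 4.79% of all genes towards the neurosphere and 5.55% towards VZ/SVZ. With no background subtraction they were also 2 and 1, beside 6.42% and 7.94%. By single probes, 13 of 15 were well above background on at least 1 array, 4 of them were 2-fold or more higher in the neurosphere, beside 11.8% of all such probes, and 2 in VZ/SVZ, beside 18.3% (30.1% in either direction).

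**Figure D1:**
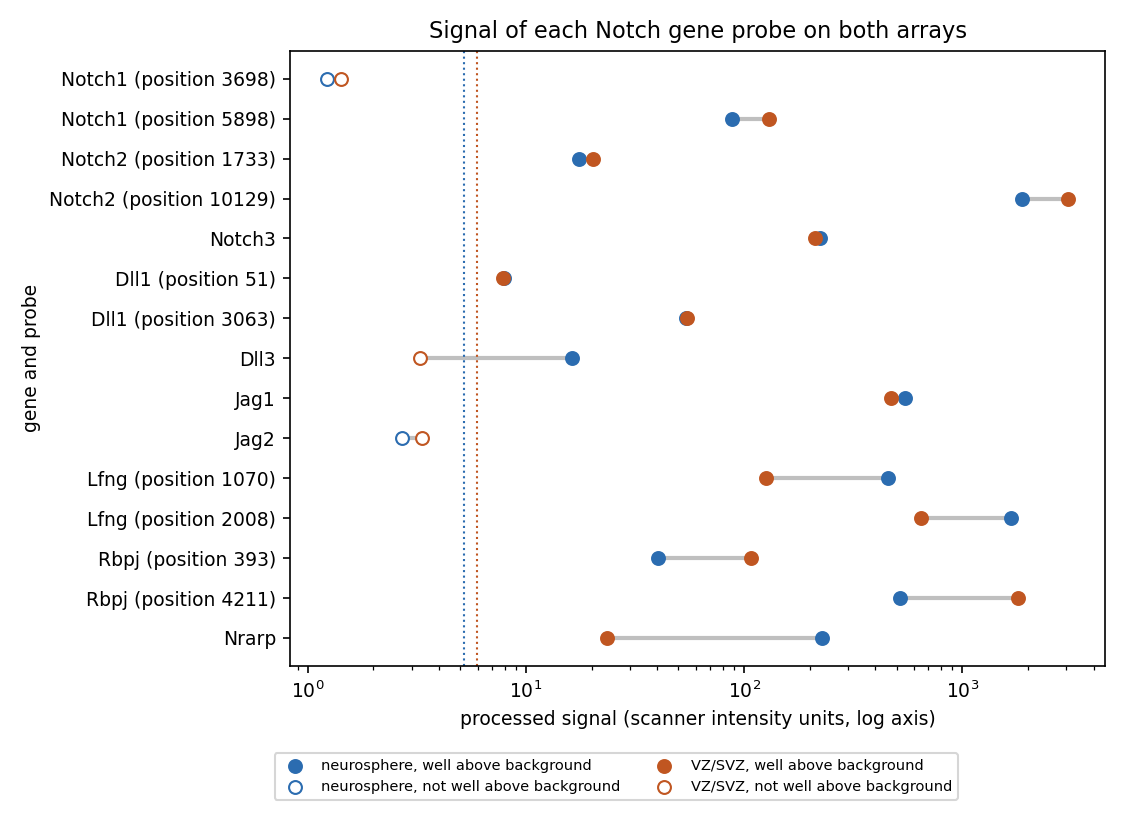
Processed signal of each of the 15 probes (log axis, scanner intensity units, not scaled between arrays) on the neurosphere array (blue) and the VZ/SVZ array (orange), with open points for probes not well above background and dotted lines at the lowest signal of such bright probes on each array, 5.20 and 5.93. Nrarp spans the widest gap, 227.7 against 23.6, Rbpj runs the opposite way, and the points of Notch3, Dll1 and Jag1 nearly coincide.

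**Figure D2:**
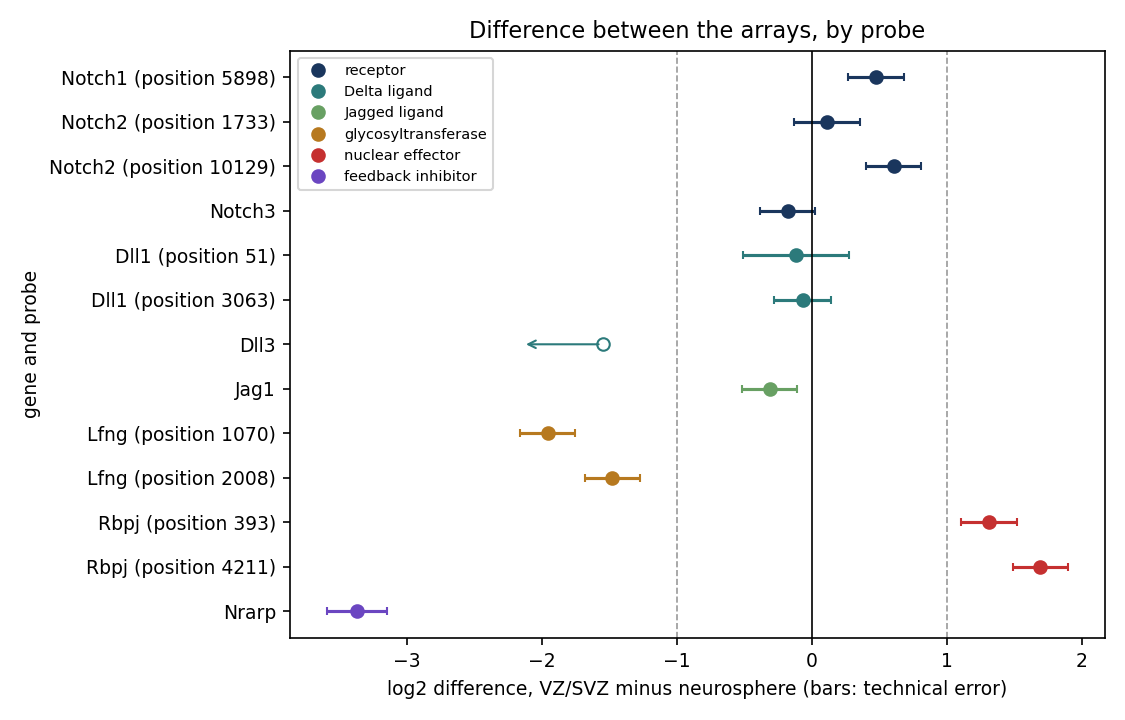
The log2 difference, VZ/SVZ minus neurosphere, of the 13 probes bright on at least 1 array, coloured by role, with bars for the technical error, dashed lines at 2-fold and an arrow for Dll3, whose value of -1.55 is a bound. Both Lfng probes and Nrarp lie left of the lines, both Rbpj probes lie right of them, and all receptor probes lie between.

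Nrarp, the feedback inhibitor, differed most. Its processed signal was 227.7 ± 22.8 in the neurosphere and 23.6 ± 2.75 in VZ/SVZ, well above background on both arrays. The raw spot stood at 234.9 over a local background of 22 in the neurosphere, and at 47.8 over 21 in VZ/SVZ. After scaling, Nrarp was 10.3-fold higher in the neurosphere (log2 difference -3.36 ± 0.22), and 0.385% of all genes measured had a lower difference. The gene has 1 probe, on chromosome 2, 25038038 to 25038097 (mm9, plus strand), at position 1760 of its RefSeq transcript, so no other probe checks the value. The VZ/SVZ signal is near background, and the size depended on the processing. The difference was -1.82 with normexp correction and -2.38 with no background subtraction, still past 2-fold.

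Lfng, the Fringe glycosyltransferase that tunes the receptor's answer to Delta and Jagged ligands, was also higher in the neurosphere, by both of its probes. The probe at position 2008 read 1680 ± 168.0 in the neurosphere and 645.0 ± 64.5 in VZ/SVZ, a 2.78-fold difference (-1.48 ± 0.20). The probe at position 1070 read 457.5 ± 45.8 and 126.1 ± 12.7, a 3.87-fold difference (-1.95 ± 0.20). The probes pointed the same way and differed by 0.48 ± 0.29. Over the 7066 genes with several bright probes the median range was 0.60. These include genes with more than 2 probes, whose range can be wider, so the values are not a like comparison. The other Fringe genes did not follow one pattern. Rfng read 213.0 and 154.9 and lay within 2-fold (-0.55 ± 0.20, with another probe at -0.86), and the difference of Lfng minus that of Rfng was -0.92 ± 0.29. Mfng was dim in the neurosphere at 1.08 and bright in VZ/SVZ at 14.2, at least 2.56-fold higher there (1.36 as a bound), a value that became 0.19 with normexp, 0.35 with no background subtraction, 0.82 with quantile normalization and 3.63 with no filter on background.

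Rbpj, the DNA-binding partner of the cleaved receptor, had the higher level in VZ/SVZ by both of its probes. The probe at position 4211 read 520.8 ± 52.1 in the neurosphere and 1799 ± 179.9 in VZ/SVZ, a 3.24-fold difference (1.69 ± 0.20). The probe at position 393 read 40.4 ± 4.17 and 107.0 ± 10.8, a 2.48-fold difference (1.31 ± 0.21). The probes differed by 0.38 ± 0.29. Of all genes measured, 8.89% had a higher difference than Rbpj. With normexp the bright probe stayed at 1.63, and the count of Rbpj probes past 2-fold went from 2 to 1.

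Of the ligands, Dll1 and Jag1 lay within 2-fold and Dll3 did not. Dll1, a Delta ligand that activates Notch on neighbouring cells, read 53.9 ± 5.51 in the neurosphere and 54.9 ± 5.65 in VZ/SVZ at position 3063, a difference of -0.07 ± 0.21 after scaling. Its Ensembl-only probe read 7.94 and 7.82, close to the dimmest bright probes, with a difference of -0.12 ± 0.39. For this ligand the arrays did not differ beyond the technical error.

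Dll3, a Delta family protein that does not activate the receptor from another cell and acts inside the cell that makes it, read 16.2 ± 1.97 in the neurosphere. In VZ/SVZ it read 3.26 ± 1.33 and was not well above background, with a raw spot of 30.0 over a local background of 22. Set against the lowest bright level of that array, the neurosphere level of Dll3 was at least 2.92-fold higher (-1.55 as a bound). Both signals are small, and the call did not hold in the settings that start from the raw spot mean. The value was -0.34 with normexp and -0.53 with no background subtraction. With no filter on background, where no bound is set, it was -2.41.

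Jag1, the Jagged ligand of many neural and vascular cells, read 547.4 ± 54.8 in the neurosphere and 471.5 ± 47.2 in VZ/SVZ, a difference of -0.31 ± 0.20. Jag2 read 2.70 ± 1.27 and 3.32 ± 1.45, below the limit on both arrays, so it has no fold. The difference of Jag1 minus that of Dll1 was -0.24 ± 0.29, no larger than its technical error.

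The receptors lay within 2-fold. Notch1, the receptor best known from neural stem cells, read 87.8 ± 8.85 in the neurosphere and 130.4 ± 13.1 in VZ/SVZ at position 5898 (0.48 ± 0.21). Its other probe, placed in an Ensembl-only transcript at chromosome 2, 26354049 to 26354108, read 1.23 and 1.41 and was dim on both arrays. Notch2, a receptor tied to quiescent stem cells of the zone, read 1872 ± 187.2 and 3044 ± 304.4 at position 10129 (0.61 ± 0.20) and 17.5 and 20.2 at its Ensembl-only probe (0.11 ± 0.24). Notch3, which marks mural cells of vessels and also some stem cells, read 223.8 ± 22.4 and 211.5 ± 21.2 (-0.18 ± 0.20). Notch1 and Notch2 were thus both slightly higher in VZ/SVZ and Notch3 was level, and the difference of Notch2 exceeded that of Notch3 by 0.78 ± 0.29. That contrast uses the brightest probe under the main processing only. With quantile normalization Notch2 stood at 0.9962, just short of 2-fold, and with the median over probes it stood at 0.36.

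**Figure D3:**
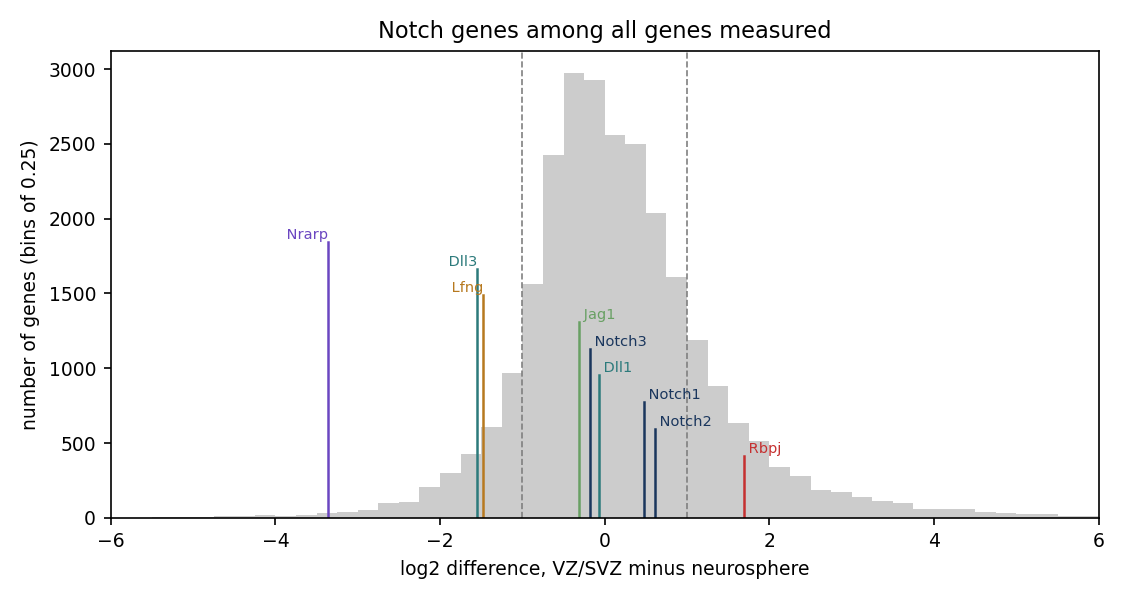
Number of genes by log2 difference (bins of 0.25) over the 26470 genes measured, with coloured lines at the 9 Notch genes measured and dashed lines at 2-fold. The axis ends at -6 and 6 and leaves out 74 genes; line heights only separate the labels. Nrarp stands in the left tail, Dll3 (a bound) and Lfng left of 2-fold, Rbpj in the right shoulder and the rest in the central mass.

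The other genes of the pathway were followed in lists by role. Of 72 genes listed, 67 were measured, 8 (11.9%) passed 2-fold towards VZ/SVZ, beside 18.7% of all genes, and 10 (14.9%) towards the neurosphere, beside 11.1%. The median was 0.02. With normexp the counts were 2 and 7. Genes of the pathway thus passed 2-fold in both directions.

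Among receptors and ligands outside the 10, 3 of 5 (60.0%) passed 2-fold towards VZ/SVZ, beside 18.7% of all genes, and 1 (20.0%) towards the neurosphere, beside 11.1%. Notch4, a receptor of endothelial cells, read 12.4 in the neurosphere and 148.9 in VZ/SVZ (3.49 ± 0.25), but another of its probes pointed the opposite way at -1.01. Its value was 1.44 with normexp, 2.03 with no background subtraction and 1.24 as the median over probes. Dll4, the Delta ligand of vessel sprouts, read 7.42 and 24.1 (1.61 ± 0.31; 0.29 with normexp). Dlk2, a Delta-like protein outside the rule for named genes, was at 1.09 ± 0.21. Dner, a neuronal ligand with Delta-like repeats, ran the other way, from 6166 in the neurosphere to 2697 in VZ/SVZ (-1.29 ± 0.20; -0.88 with quantile normalization). Beside Notch4 and Dll4, 7 of 8 endothelial markers were 2-fold or more higher in VZ/SVZ, against 18.7% of all genes. Only 2 of the 8 were bright on both arrays, and the values of the others are bounds. Bright endothelial markers numbered 3 in the neurosphere and 7 in VZ/SVZ, and their summed signal was 0.387 and 10.9. Pecam1, Cdh5, Tek, Esam and Tie1 were not well above background in the neurosphere, and Kdr was not in VZ/SVZ. Egfl7, a protein secreted by endothelial cells that can antagonise Notch, also had the higher level there (45.1 and 132.5, 1.46 ± 0.21; 0.82 with normexp). Mural markers were bright for 4 of 7 genes in the neurosphere and 7 of 7 in VZ/SVZ. Of these, 5 of 7 were 2-fold or more higher in VZ/SVZ, against 18.7% of all genes, with a list median of 3.42, beside Notch3 at -0.18. Rgs5 was at 4.18 ± 0.24, and Pdgfrb (7.46), Kcnj8 (6.10) and Abcc9 (3.42) were at bounds because they were dim in the neurosphere. The list median is the bound of Abcc9. Cspg4 (1.08 ± 0.23), the other gene past 2-fold, was also counted above in the oligodendrocyte lineage. Myh11 was at 0.18 ± 0.21, with other probes at -0.82 and -0.25. The summed signal of the mural markers was 69.3 and 71.2, most of it from 1 probe of Acta2 (6756 and 5741, -0.33 ± 0.20), whose other probes lay between 3.33 and 4.31. The part of these cells in the values was not tested.

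Of the ubiquitin ligases that make ligand active, 2 of 4 passed 2-fold towards the neurosphere, beside 11.1% of all genes, and none of the 4 towards VZ/SVZ. Neurl1a, a ubiquitin ligase that acts on ligands, read 512.0 in the neurosphere and 57.8 in VZ/SVZ, a 9.45-fold difference (-3.24 ± 0.21; -2.43 with normexp), with 0.469% of all genes lower. Mib1, the ligase that ligands chiefly depend on, read 750.7 and 378.9 (-1.08 ± 0.20, and -1.06 by its other probe; -0.98 with normexp and -0.88 with quantile normalization), and its relative Mib2 lay at 0.56 ± 0.21. Of 10 protease genes, 7 lay within 2-fold, 2 (20.0%) were past it towards the neurosphere, beside 11.1% of all genes, and 1 of the 10 towards VZ/SVZ, beside 18.7%. In the γ-secretase complex, which makes the final cut, Psenen (-1.10 ± 0.20) and Aph1b (-1.17 ± 0.28) were higher in the neurosphere and Psen2, a catalytic subunit, was higher in VZ/SVZ (1.33 ± 0.23; 0.46 with normexp). Aph1b was at -0.28 with normexp, and Psenen was at -0.70 with quantile normalization. The glycosyltransferases Pofut1 and Poglut1, which prime the receptor for Fringe, were at -0.01 ± 0.20 and -0.10 ± 0.20, with other probes of Pofut1 between -0.50 and 0.74 and of Poglut1 at 1.15.

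In the nucleus, Maml2, of the Mastermind coactivators that complete the complex of RBPJ with the receptor, read 102.4 and 15.3, a 7.17-fold difference (-2.84 ± 0.23, and -1.71 by its other probe; -1.30 with normexp and -1.75 with no background subtraction). Maml1 (0.61 ± 0.20) and the acetyltransferase gene Kat2b (-0.87 ± 0.25; -1.27 with quantile normalization) lay within 2-fold. Of 13 corepressor genes 11 lay within 2-fold, Tle1, a Groucho corepressor, was higher in VZ/SVZ (1.34 ± 0.20, other probes from 1.01 to 1.44), Hdac1, a histone deacetylase, was just past 2-fold in the neurosphere (-1.03 ± 0.20; -0.96 with normexp and -0.73 with quantile normalization) and Ctbp1 was at -0.92 ± 0.20. Among genes of receptor turnover, Dtx4, an E3 ligase of the Deltex family, read 3485 in the neurosphere and 929.8 in VZ/SVZ (-2.00 ± 0.20), and Dtx3 was at 0.99 ± 0.21 and at 1.01 with quantile normalization. Of 8 coactivator genes, 1 (12.5%) passed 2-fold towards the neurosphere and none towards VZ/SVZ. Of the 13 corepressor genes 1 (7.69%) passed each way. Of 11 turnover genes 1 (9.09%) passed each way, Dtx4 towards the neurosphere and Egfl7 towards VZ/SVZ. Of all genes, 11.1% passed 2-fold towards the neurosphere and 18.7% towards VZ/SVZ. These counts use the brightest probe, and some genes counted within 2-fold had other probes past it towards VZ/SVZ. Nedd4 was at 0.34 with other probes at 1.56 and 3.66, and Tle4 at -0.80 with its other probe at 2.58. Tle3 was at 0.41 with other probes from 0.70 to 2.13, and Cir1 at 0.04 with its other probe at 1.04.

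Target genes differed less than Nrarp. Of 9 measured, none passed 2-fold towards VZ/SVZ, beside 18.7% of all genes, and 2 (22.2%) did towards the neurosphere, beside 11.1%. The median was -0.68, beside 0.04 over all genes. Of the 9, 6 lay below 0, and the 3 above 0 were Hes5, Hes7 and Heyl. The lowest values were those of genes outside the HES and HEY families, Ccnd1, Fabp7, Myc (-0.78 ± 0.20) and Sox9 (-0.77 ± 0.20). Other probes of Myc and Sox9 were at -0.85 and -1.02. The median is the value of Hey1, and the HES and HEY genes measured lay on both sides of 0. Heyl, Myc and Sox9 are outside the rule for named genes, and Heyl was at 0.94 as a bound. Ccnd1, the cyclin of G1 phase, read 11355 and 4429 (-1.45 ± 0.20), and Fabp7, a fatty acid binding protein of radial glia, read 42131 and 21259 (-1.08 ± 0.20). Fabp7 was also counted above among the neural stem and progenitor markers. Hes7 lay just under 2-fold at 0.99 ± 0.21 and Hey2 was dim on both arrays. The canonical effectors Hes1, Hes5 and Hey1, named here although the rule did not select them, read 129.1 and 134.4, 250.3 and 432.7, and 1831 and 1222, with differences of -0.04 ± 0.21, 0.70 ± 0.20 and -0.68 ± 0.20. The difference of Nrarp minus theirs was -3.33 ± 0.30, -4.06 ± 0.30 and -2.69 ± 0.30, each beyond the technical error. These contrasts were computed under the main processing only, for the member with the largest difference. Nrarp itself moved to -1.82 with normexp and to -2.38 with no background subtraction. Of the proneural factors that drive Delta genes, Neurog1 read 9.64 and 25.4 (1.30 ± 0.28; 0.25 with normexp and 0.87 with quantile normalization), and Neurog2, Atoh1, Neurod1 and Neurod4 were dim on both arrays.

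**Figure D4:**
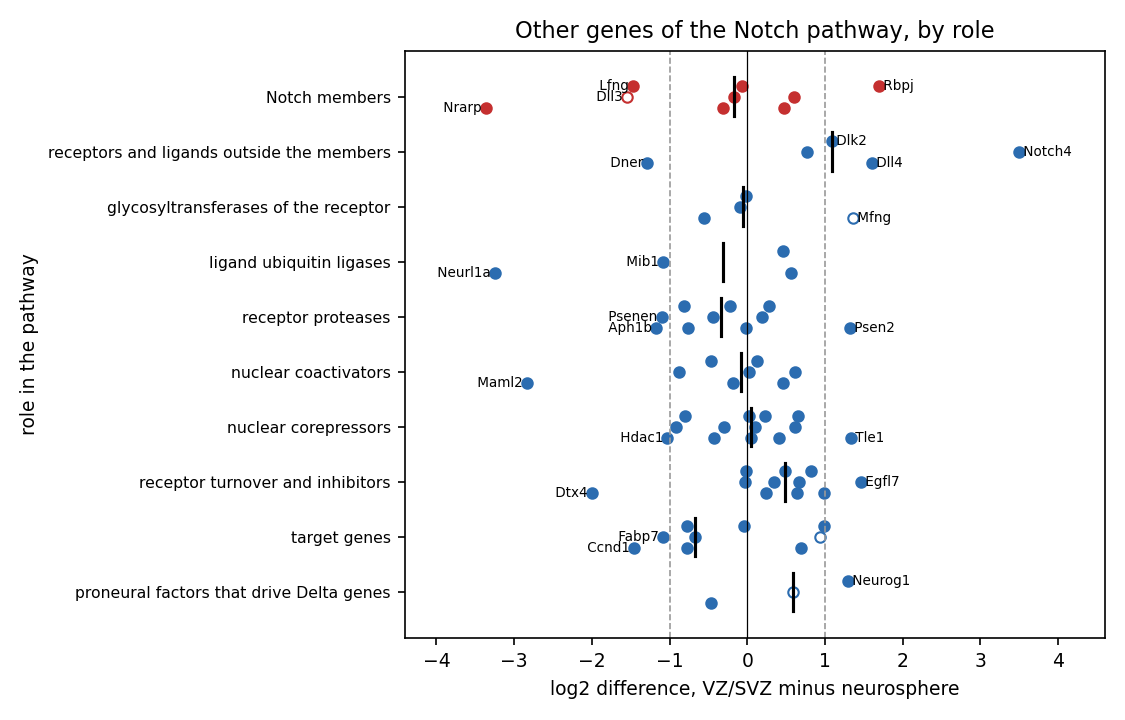
The log2 difference, VZ/SVZ minus neurosphere, of the 9 measured Notch genes (red) and of 67 other pathway genes (blue) by role, with a black bar at each median, dashed lines at 2-fold, names for genes past 2-fold and open points for bounds. Most genes lie between the lines; Nrarp, Neurl1a, Maml2 and Dtx4 stand furthest left and Notch4 furthest right.

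**Figure D5:**
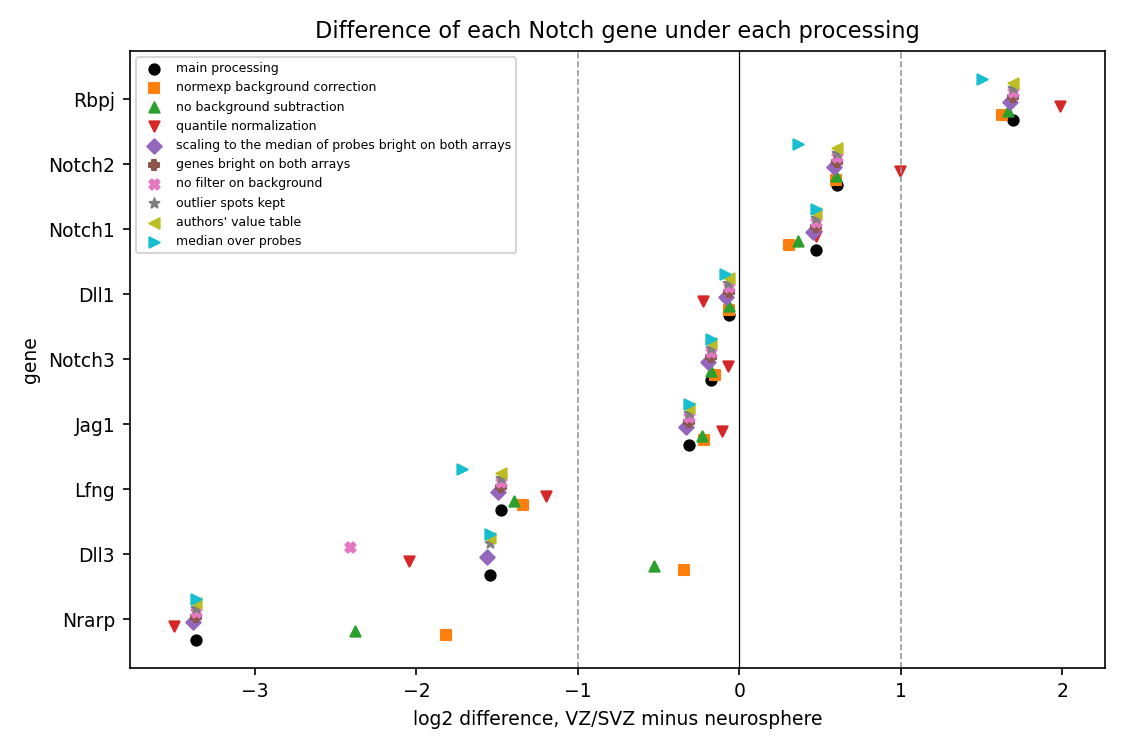
The log2 difference of each of the 9 Notch genes under the main processing (black) and 9 alternatives, with dashed lines at 2-fold. Nrarp, Lfng and Rbpj stay past 2-fold under all of them, Dll3 falls inside with normexp and without background subtraction and has no point where both arrays must be bright, and no gene changes side of 0.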

How the data were processed

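The authors deposited scanner files of 2 arrays from Agilent Feature Extraction 11.5.1.1, protocol GE1_1105_Oct12, per the file headers (the submitters' processing notes name 9.1), and a table of the same intensity values. The processed signal is a background-subtracted intensity that is not scaled between arrays, per the file headers. It holds more than a subtraction, as Jag1 in the neurosphere had a processed signal of 547.4 and a raw mean of 521.2. The alternatives with normexp and with no background subtraction start from the raw spot mean, so their changes are not of background alone. Samples were grouped by title, 1 array each, so no test was made.

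Here 3671 control spots and spots with outlier marks were left out, log2 of the processed signal was reduced by the array's 75th percentile over probes, and spots of a probe were averaged. A gene name took its brightest probe among those well above background on at least 1 array. A gene dim on 1 array got a bound against the lowest bright level there. Genes were counted at 2-fold. All 10 members are named, and from each other role list the 3 largest differences among genes bright on both arrays, bounds past 2-fold and genes dim on both. Members and lists were chosen with earlier results of these data known. Alternatives used limma 3.58.1 in R 4.3.3 (normexp with offset 50, quantile) and others listed at the end. The steps were tested on simulated data. A gene of the proneural list that the rule names is not reported here.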

Additional observations from a re-analysis of the deposited data

How the results depend on the processing

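The differences of the 10 genes and of the pathway genes that the naming rule selects, and the counts over the members and over the whole pathway list, were recomputed under 9 alternatives, the counts also at 1.5-fold. Hes1, Hes5, Hey1, Heyl, Myc, Sox9, Dlk2, Nedd4, Cir1, Tle3, Tle4, the marker genes other than Fabp7 and the counts of single role lists were not recomputed. No paired analysis was possible because each group has 1 array and the labels carry no replicate numbers; leaving out an array leaves no comparison. Of 80 recomputed differences of the 10 genes, 70 moved by less than the technical error, 10 moved by more and none reversed. Of 242 for other pathway genes, 43 moved by more, and no gene past 2-fold under the main processing reversed. Several alternatives could hardly move the 10 genes, so the 70 does not measure robustness. Those bright on both arrays kept their value under both changes of the background filter, and none of their spots had an outlier mark. The authors' values were 0.9976 to 1.0006 times the scanner's in VZ/SVZ. The median over probes leaves a gene with 1 bright probe unchanged. Within 2-fold, Pofut1 and Poglut1 changed sign, and stood at 0.23 and 0.52 with the median over probes. The count of the 10 genes higher in VZ/SVZ, 1, became 2 at 1.5-fold. Those higher in the neurosphere, 3, became 2 with normexp, with no background subtraction and among genes bright on both arrays. Probes of the 10 genes higher in VZ/SVZ, 2, became 1 with normexp, 1 with no background subtraction and 3 at 1.5-fold. Probes higher in the neurosphere, 4, became 3 with normexp, with no background subtraction and with both arrays bright. The pathway genes higher in VZ/SVZ, 8, became 2 with normexp, 3 with no background subtraction, 6 with quantile normalization and 19 at 1.5-fold. That count was 7 with both arrays bright, 9 with no filter on background and 10 with the median over probes. Those higher in the neurosphere, 10, became 7 with normexp, 7 with quantile normalization, 8 with no background subtraction and 18 at 1.5-fold. Over all genes normexp left 5.55% past 2-fold towards VZ/SVZ and 4.79% towards the neurosphere. Signal over background limits Dll3, Jag2 and the VZ/SVZ value of Nrarp.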
